A study of Mus musculus with 6 samples.

Results

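This section describes 10 genes of blood and lymph vessel endothelium, the cell layer that lines vessels, in oesophageal tumours of mice. The genes were given by name, and all 10 were among the 41253 gene symbols listed with counts and among the 17663 that passed a filter on low counts. They are Pecam1, Cdh5, Kdr, Tek, Tie1, Emcn, Esam and Eng, 8 genes of blood vessel or general endothelium, and Lyve1 and Prox1, 2 genes of lymph vessels. RNA sequencing was done on oesophageal squamous cell carcinomas of C57BL/6 mice, 3 libraries from Ptpro-/- mice (labelled Ptpro-KO) and 3 from wild type mice (labelled WT). Every mouse, wild type included, had received the carcinogen 4NQO in its drinking water for 16 weeks, starting at 6 weeks old, and was then followed for up to 12 weeks. The design text puts the tumours at 34 weeks of age while a sample tag gives week 6, and mice that had lost much weight were killed earlier. Ptpro encodes a receptor-type tyrosine phosphatase, and the design compared tumours of the 2 genotypes. The labels do not say which part of the gene was deleted.

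Endothelial cells hold to each other by the cadherin made from Cdh5 and by Pecam1 and Esam, and they sprout towards vascular endothelial growth factor (VEGF), which Kdr binds. The receptor pair Tek and Tie1 answers to angiopoietins and governs how stable a vessel is. Lymph vessels branch from veins, and the homeobox gene Prox1 sets their identity. Some of these genes are not private to endothelium: Pecam1 is also made by platelets and leukocytes, Lyve1 and Tek by some macrophages, and Prox1 by some muscle fibres.

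The labels need a caution before any direction is read. Ptpro itself stood at 30.3, 42.8 and 50.6 CPM (counts per 1e6 reads of the scaled library total) under the Ptpro-KO label, against 5.05, 0.359 and 2.38 CPM under the WT label. The gene that should be missing was therefore higher under the knockout label (log2 fold change 3.97, SE 0.85, adjusted p = 0.0617 by the edgeR quasi-likelihood test). Over 17 alternative fits the log2 fold change of Ptpro ran from 2.32 to 4.89. Its adjusted p, by the test of each alternative, ran from 4.1e-06 to 0.228, and 4 were under 0.05. All directions below are between libraries as labelled. Library totals ran from 25745240 to 39827467 reads. Skeletal muscle transcripts also set libraries apart within a label: 10 muscle genes summed to 12187, 5099 and 78.7 CPM under the Ptpro-KO label and to 11734, 55.7 and 8210 CPM under the WT label. Thyroid transcripts were high in Ptpro-KO replicate 2 alone, where 6 thyroid genes summed to 789 CPM, against at most 13.2 CPM elsewhere. The 9 squamous keratinocyte genes, which check the labelled tissue, summed to between 15294 and 22051 CPM under the Ptpro-KO label and to between 43861 and 52595 CPM under the WT label. In whole tumours, fewer cells of a type and less RNA per cell cannot be told apart.

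Promoter windows are shown for Tek and Tie1, the paired receptors, and for Emcn, the blood vessel gene with the narrowest range over the 6 libraries. Each holds 250 bases before to 50 after a RefSeq start (GRCm38.p6) and is read 5′ to 3′ on the gene's strand. Capitals mark GGAA or its reverse complement TTCC, the core letters read by ETS factors, a family that includes the endothelial regulators Erg and Fli1. RefSeq windows were matched for 6 of the 10 genes; Pecam1, Cdh5, Esam and Lyve1 had no entry in the table used.
Tek: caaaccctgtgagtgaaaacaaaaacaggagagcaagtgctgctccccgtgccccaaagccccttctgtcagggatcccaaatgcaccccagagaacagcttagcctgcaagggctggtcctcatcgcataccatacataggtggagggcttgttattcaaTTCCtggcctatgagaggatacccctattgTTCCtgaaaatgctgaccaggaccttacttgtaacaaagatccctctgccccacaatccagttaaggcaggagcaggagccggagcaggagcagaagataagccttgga
Tie1: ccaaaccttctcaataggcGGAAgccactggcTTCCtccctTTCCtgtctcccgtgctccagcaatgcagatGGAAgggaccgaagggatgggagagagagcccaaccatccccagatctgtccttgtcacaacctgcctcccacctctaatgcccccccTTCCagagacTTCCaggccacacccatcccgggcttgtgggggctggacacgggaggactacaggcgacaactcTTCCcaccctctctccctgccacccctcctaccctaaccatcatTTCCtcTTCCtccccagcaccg
Emcn: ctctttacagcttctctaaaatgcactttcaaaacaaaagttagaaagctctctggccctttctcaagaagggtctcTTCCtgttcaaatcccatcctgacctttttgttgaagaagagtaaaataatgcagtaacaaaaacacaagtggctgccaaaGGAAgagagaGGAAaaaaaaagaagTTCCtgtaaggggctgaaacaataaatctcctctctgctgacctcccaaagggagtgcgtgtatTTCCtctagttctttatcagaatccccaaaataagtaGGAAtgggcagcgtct
They lie at chr4:94739039-94739338 (Tek, plus strand), chr4:118489800-118490099 (Tie1, minus strand) and chr3:137340828-137341127 (Emcn, plus strand). The core occurred 9 times in the Tie1 window, 6 times in that of Emcn and 2 times in that of Tek. Counting both strands, the median over 32851 RefSeq windows of 300 bases was 3. At least 9 cores were found in 1.59% of those windows and at least 6 in 15.7%. The longer ETS motif CAGGAAG, which contains the core, was in the Emcn window, as in 13.3% of all windows on either strand. The Tek window held AGATAA, the letters of a GATA motif, which were in 11.2% of all windows. A match of letters is a description of these windows and not a bound site.

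None of the 10 endothelial genes passed a test of difference between the labels, which with 3 libraries per label does not show that they were equal. In the edgeR test over all genes, 0 of the 10 passed an adjusted p of 0.05 and 0 had an unadjusted p under 0.05 (25% of all genes did), and DESeq2 and limma-voom also called 0. Of all genes tested, 4.1% passed in edgeR and 17.9% in DESeq2, which called 1682 higher and 1470 lower. The counts for the lists below are to be read beside these shares. The log2 fold changes, Ptpro-KO label minus WT label, were positive for 7 genes and negative for 3 (Kdr, Emcn and Esam, all of which turned positive with library totals as the only scaling). Their median was 0.17, against 0.03 over all genes tested. Only Prox1 had its 3 libraries of one label all above those of the other, and 32.5% of all genes tested had groups that did not overlap. An exact two-sided permutation test of 3 libraries against 3 cannot go below 0.1, and only Prox1 reached that value.

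**Figure D1:**
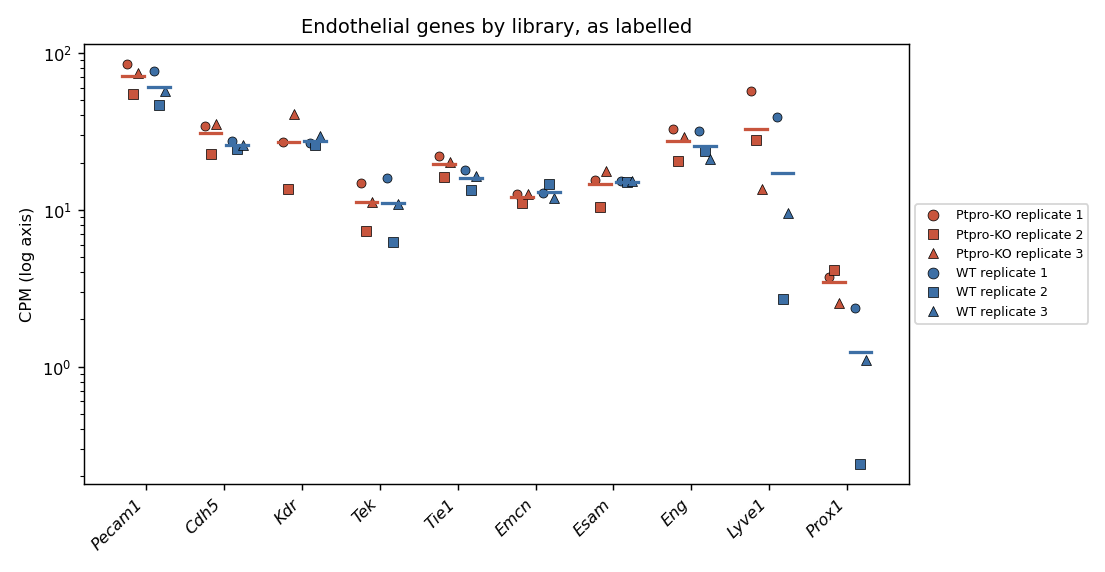
Expression of the 10 endothelial genes in CPM on a log axis, 1 point for each library and a line for each label's mean (n = 3). Over the 6 libraries the 8 blood vessel genes span 1.31-fold (Emcn) to 3.02-fold (Kdr), and Lyve1 and Prox1 span 21.2-fold and 17.2-fold.

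Of the genes of cell contact, Pecam1, which encodes the adhesion molecule CD31 at endothelial junctions (chromosome 11, 106654217 to 106750628 of GRCm38, minus strand), stood at 85.2, 55.1 and 74.3 CPM under the Ptpro-KO label, against 76.8, 46.8 and 57.2 CPM under the WT label. The groups overlapped, and replicate 1 was the highest library within each label. Its log2 fold change was 0.25 (SE 0.24, adjusted p = 0.571 by edgeR). Cdh5, the junction cadherin that defines endothelium (chromosome 8, 104101625 to 104144511, plus strand), stood at 34.2, 22.5 and 35.3 CPM under the Ptpro-KO label, against 27.7, 24.3 and 25.9 CPM under the WT label. The lowest of all 6 Cdh5 values was Ptpro-KO replicate 2, although the other two libraries of that label were above all WT values. The fitted ratio for Cdh5 was 1.18-fold, with a 95% interval from 0.852-fold to 1.64-fold. Esam, an adhesion molecule of endothelial tight junctions and platelets (chromosome 9, 37528078 to 37538319, plus strand), stood at 15.5, 10.5 and 17.7 CPM under the Ptpro-KO label, against 15.2, 15.02 and 15.2 CPM under the WT label. The WT values thus lay inside the range of the others, and the log2 fold change was -0.06 (SE 0.22).

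Emcn encodes endomucin, a sialomucin on the surface of capillary and venous endothelium. It lies on chromosome 3 (137341067 to 137432185, plus strand). Emcn stood at 12.6, 11.1 and 12.6 CPM under the Ptpro-KO label, against 12.8, 14.5 and 11.8 CPM under the WT label. The highest of these was only 1.31-fold above the lowest, and over all genes tested the median of that range was 1.87-fold. The interval for Emcn was the narrowest of the 10, from 0.715-fold to 1.20-fold. Eng, which encodes endoglin, a co-receptor for BMP and TGF-beta ligands (chromosome 2, 32646595 to 32682669, plus strand), stood at 32.8, 20.4 and 29.0 CPM under the Ptpro-KO label, against 31.6, 23.9 and 21.2 CPM under the WT label. Its groups overlapped, and its log2 fold change was 0.10 (SE 0.23, adjusted p = 0.833 by edgeR). Exons of Eng share 61 bases with Fpgs on the opposite strand, and strandedness is not stated in the labels or headers.

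Among the 8 blood vessel genes, Kdr and Tek had the widest ranges over the libraries, 3.02-fold and 2.55-fold. Kdr, the main signalling receptor for VEGF (chromosome 5, 75932827 to 75978458, minus strand), stood at 27.0, 13.5 and 40.7 CPM under the Ptpro-KO label, against 26.6, 25.8 and 29.7 CPM under the WT label. Both the highest and the lowest library carried the Ptpro-KO label, and all WT values fell between them. The means were 27.1 ± 13.6 CPM under the Ptpro-KO label and 27.4 ± 2.07 CPM under the WT label (SD, n = 3 each), and the 95% interval of the ratio ran from 0.519-fold to 1.89-fold. Tek, the angiopoietin receptor TIE2 (chromosome 4, 94739289 to 94874976, plus strand), stood at 14.9, 7.37 and 11.2 CPM under the Ptpro-KO label, against 16.0, 6.26 and 10.9 CPM under the WT label. Each label had 1 high, 1 middle and 1 low Tek library, and the log2 fold change was 0.02 (SE 0.41). Tie1, an orphan receptor that partners TIE2 (chromosome 4, 118471191 to 118490061, minus strand), stood at 22.0, 16.2 and 20.3 CPM under the Ptpro-KO label, against 18.0, 13.4 and 16.4 CPM under the WT label. Its groups overlapped, since Ptpro-KO replicate 2 was below WT replicates 1 and 3, and its ratio was 1.22-fold with an interval from 0.897-fold to 1.67-fold (adjusted p = 0.383 by edgeR).

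Ptpro-KO replicate 2 was the lowest of the 6 libraries for 5 of these 8 blood vessel genes, and WT replicate 2 for the other 3. Without Ptpro-KO replicate 2 the log2 fold changes of Kdr and Esam were 0.29 and 0.12, positive where they had been negative, and still 0 of the 10 genes passed. The 5 red blood cell genes found in the files, globins and Alas2, summed to 112, 5.21 and 313 CPM under the Ptpro-KO label, against 99.1, 112 and 42.0 CPM under the WT label. All 5 were lowest in Ptpro-KO replicate 2. Other lists varied for that library. Of 16 other receptors and partners it was lowest for 5 and highest for 1. Of 20 other blood vessel genes it was lowest for 4 and highest for 4. Of 16 transcription factors linked to endothelium it was lowest for 1, and of 10 pericyte genes it was lowest for 1 and highest for 1. WT replicate 2 was lowest for 12 of the 20 other blood vessel genes and for 6 of the 16 receptors and partners. The part of blood content in the vessel gene values was not tested.

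**Figure D2:**
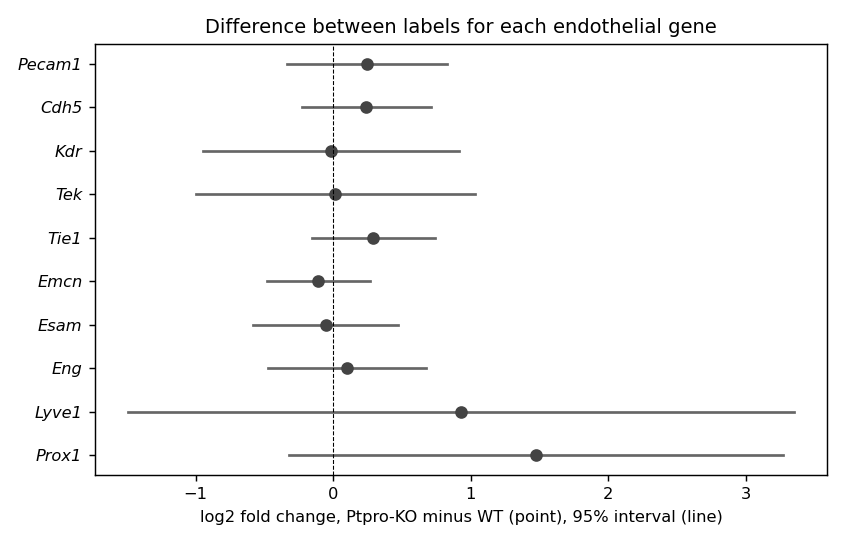
Log2 fold change of each endothelial gene, Ptpro-KO label minus WT label, with its 95% interval from the edgeR fit (n = 3 each). All 10 intervals include 0, and those of Lyve1 and Prox1 are the widest.

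The 2 lymph vessel genes had the largest fitted differences and the largest spread. Lyve1, a hyaluronan receptor of lymph endothelium (chromosome 7, 110850607 to 110863239, minus strand), stood at 57.4, 27.8 and 13.7 CPM under the Ptpro-KO label, against 39.4, 2.71 and 9.61 CPM under the WT label. The groups overlapped, since WT replicate 1 was above 2 of the libraries labelled Ptpro-KO. The fitted log2 difference was 0.93 (SE 0.99, edgeR adjusted p 0.607) and had an interval from 0.356-fold to 10.2-fold. Prox1 (chromosome 1, 190118035 to 190170714, minus strand) stood at 3.74, 4.11 and 2.53 CPM under the Ptpro-KO label, against 2.35, 0.239 and 1.10 CPM under the WT label. The lowest Ptpro-KO value was just above the highest WT value. These values rest on few reads, 135, 175 and 96 under the Ptpro-KO label and 81, 6 and 31 under the WT label. The log2 fold change of Prox1 was 1.48 (SE 0.73, adjusted p = 0.277 by edgeR), with an interval from 0.801-fold to 9.65-fold. Exons of Prox1 share 133 bases with the antisense gene Prox1os, which had 3 reads in all libraries together.

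Single libraries moved both lymph estimates. Without WT replicate 1 the log2 fold change of Lyve1 was 2.41 and that of Prox1 2.34, whereas without Ptpro-KO replicate 1 Lyve1 was at 0.23 and without WT replicate 2 it was at 0.42. Without WT replicate 2, which had 6 Prox1 reads, Prox1 was at 0.99. In none of these did either gene pass the test. The libraries poorest in skeletal muscle transcripts, Ptpro-KO replicate 3 and WT replicate 2, held the lowest Lyve1 and Prox1 values of their labels. With both left out, an alternative chosen after seeing the data, the log2 fold changes were 0.79 for Lyve1 and 1.17 for Prox1, with edgeR adjusted p of 0.622 and 0.258. The libraries kept still differed in muscle sums, from 5099 to 12187 CPM. Leaving out libraries in this way is no test of muscle content, and its part in these values was not tested.

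Ratios within a library do not depend on how libraries are scaled, and they showed the same division. Levels were set per length, as RPKM summed over a gene's transcripts. Lyve1 over Cdh5 was 2.56, 1.88 and 0.591 under the Ptpro-KO label, against 2.18, 0.17 and 0.566 under the WT label. The 6 ratios spanned 15.03-fold and the groups overlapped. Prox1 over Cdh5 was 0.0874, 0.146 and 0.0583 under the Ptpro-KO label, against 0.0636, 0.00612 and 0.0321 under the WT label, a span of 23.9-fold. Unlike the CPM of Prox1, this ratio overlapped between the labels, since Ptpro-KO replicate 3 was below WT replicate 1. By contrast Emcn over Cdh5 spanned 1.68-fold, Kdr over Cdh5 1.93-fold and Tek over Tie1 1.94-fold. Emcn over Cdh5 was 1.01, 1.36 and 0.979 under the Ptpro-KO label, against 1.28, 1.64 and 1.24 under the WT label. All but Tek over Tie1 share Cdh5 as denominator, and no ratio was tested.

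**Figure D3:**
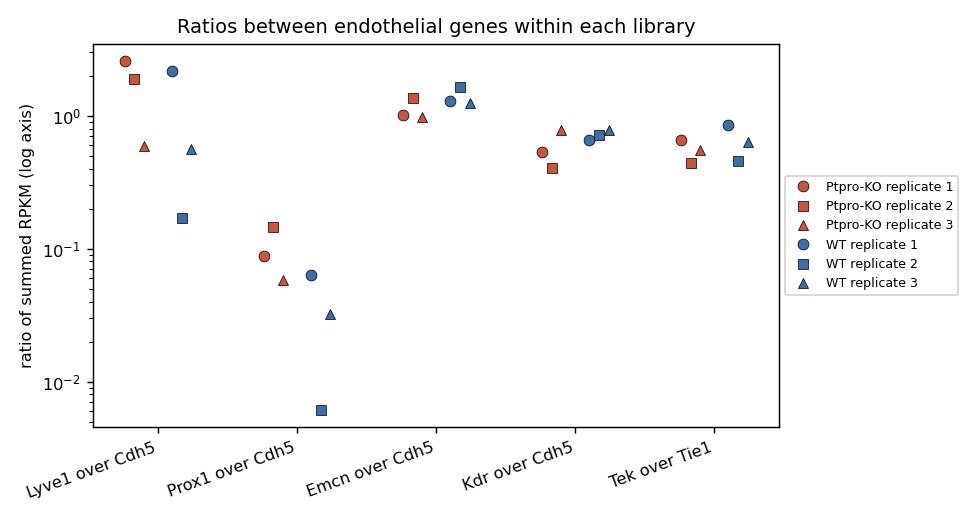
Ratios of summed RPKM between endothelial genes within each library, on a log axis, 1 point per library. The ratios of Lyve1 and Prox1 to Cdh5 span 15.03-fold and 23.9-fold, and the other ratios less than 2-fold.

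Per length, the order of the 10 genes placed Pecam1 highest, at 25.3 ± 4.74 RPKM under the Ptpro-KO label and 19.5 ± 4.23 RPKM under the WT label (SD, n = 3 each). Lyve1 had no fixed place in the order: it was next at 13.1 ± 8.54 RPKM under the Ptpro-KO label, but at 6.13 ± 6.81 RPKM under the WT label its mean was below those of Emcn, Esam, Eng and Cdh5 (SD, n = 3 each). Over all 6 libraries (SD, n = 6), Emcn at 8.64 ± 0.75, Esam at 8.53 ± 1.45, Eng at 8.25 ± 1.63 and Cdh5 at 7.12 ± 1.52 RPKM were neighbours within their spread. Kdr at 4.64 ± 1.59 and Tie1 at 4.38 ± 0.872 RPKM were likewise within their spread, and Tek was at 2.64 ± 0.865 RPKM. Prox1 was the lowest, at 0.473 ± 0.326 RPKM.

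The deposited files list reads by Ensembl transcript, and most members had nearly all reads on 1 transcript. Cdh5 and Lyve1 had a single listed transcript. The main transcript took at least 98.7% of the reads of Eng, 98.4% of those of Kdr and 95.3% of those of Esam in every library. Pecam1 and Prox1 were divided. For Pecam1, ENSMUST00000068021 took 68.3% to 73.7% of its reads, ENSMUST00000080853 took 18.4% to 22.3%, and ENSMUST00000184424, annotated as a retained intron, took 5.46% to 10.3%. For Prox1, ENSMUST00000175916 took 57.8%, 57.7% and 56.3% under the Ptpro-KO label, against 65.4%, 83.3% and 64.5% under the WT label, and ENSMUST00000010319 nearly all the rest. The WT shares of Prox1 rest on 81, 6 and 31 reads. The rule that split reads between isoforms is not recorded in the labels or headers, so these shares are the authors' assignment and not isoform levels.

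Of 20 other genes of blood vessel endothelium, 0 passed the edgeR test, 3 had an unadjusted p under 0.05, and DESeq2 called 2 higher. Fold changes were positive for 17 and negative for 3, and their median log2 value was 0.35. The smallest p values were those of Ptprm, a receptor phosphatase (log2 fold change 0.77, adjusted p = 0.0969 by edgeR), Ecscr, which encodes an endothelial surface protein (0.88, adjusted p = 0.127), and Egfl7, a secreted endothelial protein (0.39, adjusted p = 0.16). Vwf, the clotting factor stored in endothelium, stood at 96.8, 57.5 and 89.2 CPM under the Ptpro-KO label, against 94.6, 46.3 and 59.6 CPM under the WT label.

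Of 10 other genes of lymph vessels, 0 passed in edgeR and 0 in DESeq2, and 1 had an unadjusted p under 0.05. All 10 fold changes were positive, with a median log2 value of 1.09. The lowest library was WT replicate 2 for 6 of them and WT replicate 3 for 4. The highest was a replicate 1 library for all 10, Ptpro-KO replicate 1 for 8 and WT replicate 1 for 2. The part of what sets the replicate 1 libraries apart was not tested. Mmrn1, a secreted protein of lymph endothelium, stood at 41.2, 40.02 and 11.5 CPM under the Ptpro-KO label, against 31.4, 0.797 and 8.58 CPM under the WT label. Ccl21a, a chemokine by which lymph vessels draw in dendritic cells, stood at 26.3, 15.6 and 21.3 CPM under the Ptpro-KO label, against 36.1, 0.917 and 7.69 CPM under the WT label. For both genes WT replicate 1 was, in CPM, within or above the other label's values. The authors' FPKM gene table differed for Ccl21a. There it stood at 0.423, 1.16 and 0.578 FPKM under the Ptpro-KO label, against 0.270, 0.384 and 0.660 FPKM under the WT label. WT replicate 1 was then the lowest, so the level and pattern of Ccl21a depend on the processing. The 3 with the smallest p were Foxc2, a factor of lymph valves (log2 fold change 1.33, adjusted p = 0.186 by edgeR), the integrin gene Itga9 (1.18, adjusted p = 0.259) and Pdpn (1.30, adjusted p = 0.376). Podoplanin, the product of Pdpn, is also made by fibroblasts and basal keratinocytes. Sums of fibroblast and macrophage genes were also higher under the Ptpro-KO label: 9 fibroblast genes summed to between 3159 and 4907 CPM under the Ptpro-KO label and between 377 and 2040 CPM under the WT label. For 13 macrophage genes the sums ran from 1168 to 2075 CPM under the Ptpro-KO label and from 383 to 849 CPM under the WT label. The largest term of the fibroblast sums was Col3a1, at 2283, 2573 and 1672 CPM under the Ptpro-KO label, against 959, 146 and 354 CPM under the WT label. Of the fibroblast genes, Col1a1 and Col1a2 were called higher in edgeR, with adjusted p up to 0.0886 and 0.181 over the 17 alternatives. In that list 5 had an unadjusted p under 0.05, DESeq2 called 5 higher, and 5 had groups that did not overlap (32.5% of all genes). The groups overlapped for Dcn, Lum and Dpt (adjusted p = 0.819, 0.572 and 0.796 by edgeR), and Dcn was highest in WT replicate 1. Of the 12 macrophage genes tested 0 were called in edgeR, while 9 had an unadjusted p under 0.05, against 25% of all genes. DESeq2 called 9 of them higher, where it called 17.9% of all genes in either direction. The smallest p were those of Fcgr3, Itgam and Mrc1. The part of these cells in the Lyve1, Prox1 and other lymph gene values was not tested.

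**Figure D4:**
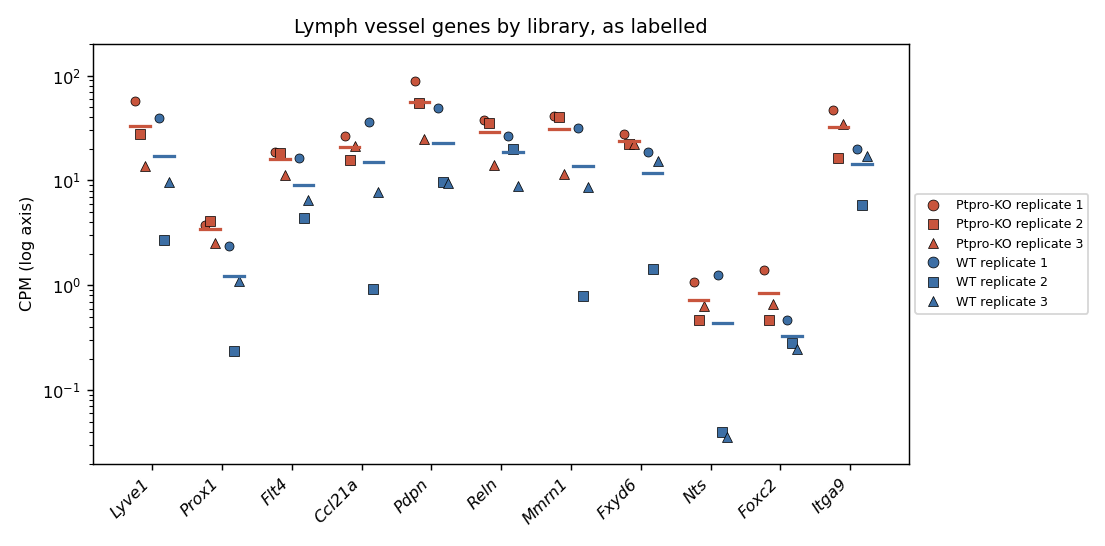
Lyve1, Prox1 and 9 other lymph vessel genes in CPM on a log axis, 1 point per library and a line for each label's mean (n = 3). Stab2, with 0 reads in WT replicate 2, is left off the axis. WT replicate 2 is lowest for Lyve1, Prox1, Flt4, Ccl21a, Mmrn1, Fxyd6 and Itga9.

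Among the ligands, the angiopoietin gene Angpt4 was called. It stood at 0.996, 1.76 and 0.896 CPM under the Ptpro-KO label, against 0.145, 0.159 and 0.0356 CPM under the WT label. These are 36, 75 and 34 reads under the Ptpro-KO label and 5, 4 and 1 under the WT label. Angpt4 rose by 3.38 on the log2 scale (SE 0.56, edgeR adjusted p 0.0375), and the call was lost whichever library was left out (adjusted p up to 0.139). It was 1 of 8 VEGF and angiopoietin genes, of which 1 rose and 0 fell, where 1.81% of all genes tested rose and 2.29% fell. The median log2 fold change of the 8 was 0.27, positive for 5 and negative for 3; 2 had an unadjusted p under 0.05 and DESeq2 called 1 higher. Vegfc, the growth factor of lymph vessels, stood at 7.86, 4.08 and 3.00 CPM under the Ptpro-KO label, against 2.84, 1.47 and 1.74 CPM under the WT label. The groups of Vegfc did not overlap, but its log2 fold change of 1.30 did not pass (adjusted p = 0.153 by edgeR). Vegfa, the main growth factor of blood vessels, stood at 153, 108 and 234 CPM under the Ptpro-KO label, against 154, 431 and 169 CPM under the WT label, highest in WT replicate 2. Its log2 fold change was -0.61 (SE 0.49).

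Of 16 other receptors and partners, Nrp2 rose and 0 fell in edgeR. Fold changes were positive for 12 and negative for 4, with a median log2 value of 0.25; 2 had an unadjusted p under 0.05 and DESeq2 called 2 higher. Nrp2 encodes neuropilin 2, a co-receptor for VEGF-C and semaphorins found on veins and lymph vessels and on some other cells. It stood at 110, 105 and 89.2 CPM under the Ptpro-KO label, against 43.2, 46.2 and 35.3 CPM under the WT label. Its groups did not overlap, and it was higher by 1.28 on the log2 scale (SE 0.14, edgeR adjusted p 0.0182). Over 17 alternatives its log2 fold change ran from 1.17 to 1.44 and its edgeR or alternative adjusted p up to 0.085, the call being lost without any library but Ptpro-KO replicate 3. Its relative Nrp1 had a log2 fold change of 1.09 that did not pass (adjusted p = 0.133). Flt4, the VEGF-C receptor, stood at 18.6, 18.3 and 11.2 CPM under the Ptpro-KO label, against 16.3, 4.42 and 6.51 CPM under the WT label, and its groups overlapped. Ptprb, the vascular phosphatase that acts on TIE2 and belongs to the same R3 family as Ptpro, stood at 61.8, 51.9 and 57.6 CPM under the Ptpro-KO label, against 58.1, 35.8 and 52.2 CPM under the WT label.

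Of 16 transcription factors linked to endothelium, Sox7 fell and 0 rose in edgeR. Fold changes were positive for 14 and negative for 2, with a median log2 value of 0.47. Ptpro-KO replicate 1 was the highest library for 10 of the 16 and WT replicate 1 for 4, and WT replicate 2 was the lowest for 12. In that list 5 had an unadjusted p under 0.05, and DESeq2 called 2 higher and 1 lower. Sox7 stood at 7.78, 6.52 and 7.27 CPM under the Ptpro-KO label, against 30.1, 40.1 and 27.4 CPM under the WT label (log2 fold change -2.18, SE 0.19, adjusted p = 0.0125 by edgeR). Its adjusted p ran up to 0.0639 over the 17 alternatives, and the call was lost without Ptpro-KO replicate 2, WT replicate 2 or WT replicate 3. The related factors Sox17 and Sox18, which share roles with Sox7 in endothelium, had log2 fold changes of 0.34 and 0.01 and did not pass. Of the 9 squamous keratinocyte genes, Krt5, Krt14, Krt6a and Dsc3 fell in edgeR (adjusted p = 0.0368, 0.035, 0.0226 and 0.0125), and DESeq2 called 7 lower. Over the 17 alternatives these calls held in 8, 7, 10 and 13, with adjusted p up to 0.154. The part of epithelial content in the Sox7 values was not tested. Erg and Fli1, the ETS factors named with the promoters, had log2 fold changes of 0.33 and 0.90 (adjusted p = 0.421 and 0.275 by edgeR). Nr2f2, a factor of venous identity that acts with Prox1, stood at 19.4, 13.1 and 17.4 CPM under the Ptpro-KO label, against 7.25, 5.78 and 9.58 CPM under the WT label. Its groups did not overlap, and its log2 fold change of 1.14 missed the threshold (adjusted p = 0.068 by edgeR).

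Of 10 pericyte genes, Ndufa4l2 fell and 0 rose in edgeR. Fold changes were positive for 8 and negative for 2, 5 had an unadjusted p under 0.05, and DESeq2 called 3 higher and 2 lower. Ndufa4l2 stood at 14.8, 13.5 and 12.4 CPM under the Ptpro-KO label, against 62.1, 105 and 110 CPM under the WT label (log2 fold change -2.77, SE 0.25, adjusted p = 0.0125 by edgeR). Ndufa4l2 encodes a mitochondrial protein that low oxygen induces in many cells, and its exons share 32 bases with Shmt2 on the opposite strand. Its call was lost without the same 3 libraries, with an adjusted p up to 0.0747. Pdgfrb, the receptor that recruits pericytes to vessels, had a log2 fold change of 1.24 and did not pass (adjusted p = 0.0736 by edgeR). Of 3 platelet genes tested 0 passed, while 2 had an unadjusted p under 0.05 and DESeq2 called 2 higher. The 6 platelet genes summed to between 66.3 and 383 CPM under the Ptpro-KO label and between 13.2 and 50.4 CPM under the WT label. Ppbp and Pf4 made up most of the sums except in WT replicates 2 and 3, where Itga2b did, at 13.1 and 8.40 CPM, and Gp9, Gp1ba and Treml1 were at most 0.332 CPM in any library. The smallest p of the tested ones were those of Pf4, Ppbp and Itga2b. The part of platelets in the Pecam1 and Esam values was not tested. Of the red blood cell genes 0 of 5 passed in edgeR, 0 at an unadjusted p under 0.05 and 0 in DESeq2, and the smallest p were those of Alas2, Hbb-bt and Hba-a1. Of the 10 skeletal muscle genes 0 passed in edgeR, 0 had an unadjusted p under 0.05 and 0 passed in DESeq2, with a median log2 fold change of -0.19; Myh7, Myod1 and Myog had the smallest p. Of 4 thyroid genes tested 0 passed in edgeR, 2 had an unadjusted p under 0.05 and DESeq2 called 1 lower; Foxe1, Tg and Nkx2-1 had the smallest p.

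**Figure D5:**
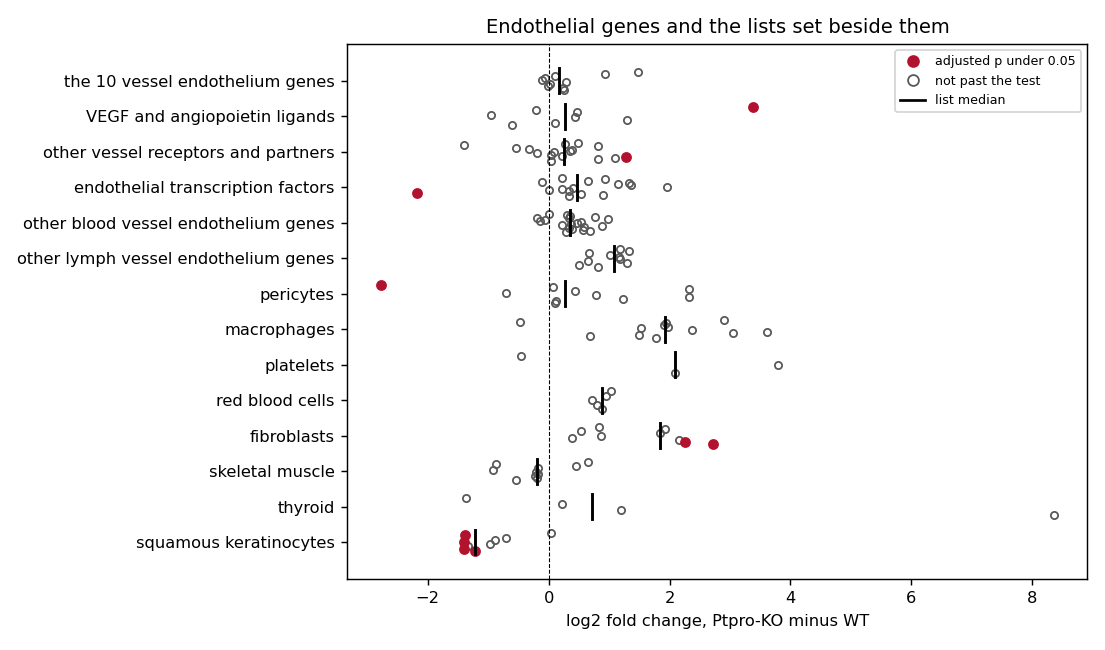
Log2 fold changes, Ptpro-KO label minus WT label, for the 10 vessel endothelium genes and 13 lists set beside them, each point a gene and each bar a list median. Filled points passed an adjusted p of 0.05 in edgeR; the 10 vessel genes have a median of 0.17 and no filled point.

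A search of 13820 genes with a mean log2 CPM of at least 1 gave those whose values followed Cdh5 or Lyve1 most closely over the 6 libraries. For Cdh5 they were Rogdi, Kctd12b, Gimap4, Stt3b and Cacna1e, from 0.994 down to 0.986 in Pearson's r of log2 CPM. For Lyve1 they were Folr2, Cep85, Stard8, Ms4a4d and Pcolce2, from 0.995 down to 0.990. Folr2 stood at 7.83, 3.47 and 2.35 CPM under the Ptpro-KO label, against 5.51, 0.319 and 1.39 CPM under the WT label, and so had the same order of libraries as Lyve1. The points are 6 whole-tumour libraries that differ in depth and tissue mix, which all genes of a library share, and this likeness is a description of these samples. With 6 points and 13820 genes searched, the highest r can be large without any relation between the genes.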

How the data were processed

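Per the labels' protocols, total RNA from oesophageal squamous cell carcinomas was purified with DNase treatment and sequenced. Bowtie 0.12.2 and mm10 are named in the submitters' processing notes. For every library the authors deposited a transcript table with raw counts and, per the file headers, RPKM. A deposited table of scaled gene counts was not used. The authors' deposited RPKM values were summed over a gene's transcripts. The authors' FPKM gene table was used in alternatives; its 2 further columns were not used. The read counter, the handling of isoforms and strandedness are stated in neither labels nor headers.

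Read counts were summed per symbol (41253 from 100249 transcripts), filtered with filterByExpr (10 reads, 15 in total), scaled by TMM and tested over 17663 genes by edgeR (4.0.16, quasi-likelihood; R 4.3.3), with Benjamini-Hochberg adjustment at 0.05. The standard error is the log2 fold change over the root of F, and 95% intervals use the t distribution of that fit. Alternatives used limma 3.58.1, DESeq2 1.42.0, other scalings and filters, FPKM and left-out libraries. Positions come from GENCODE M21 (GRCm38, the assembly of mm10). Libraries were taken as separate mice, since the design text gives 3 per group; if they are not, p-values measure only technical spread. In a simulation from the means, library sizes and dispersions of these libraries (17412 genes tested), 3 of 100 genes set to a 2-fold change were called. Of 100 set to 4-fold, 55 were called, and there was 1 false call. No other gene was changed there, while 4.1% of genes passed in the data. The adjusted threshold was thus stricter in the simulation, and its shares do not give the recovery in the data.

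The 10 genes, the lists and the tests were chosen with earlier results of these data known. Some lists share genes, so their counts are not independent. Flt4 is in the lymph vessel and receptor lists, and Foxc2 in the lymph vessel and transcription factor lists. Sox18 is in the transcription factor list and that of other blood vessel genes. Named were all 10 genes, from each list the called genes or, with none, the 3 with the smallest p, and the 5 genes most like Cdh5 and Lyve1. Other names, such as Vwf, Mmrn1, Ccl21a, Vegfa, Vegfc, Nrp1, Flt4, Ptprb, Sox17, Sox18, Erg, Fli1, Nr2f2 and Pdgfrb, were chosen after their values were seen.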

Additional observations from a re-analysis of the deposited data

How the results depend on the processing

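Under all 17 alternatives 0 of the 10 endothelial genes were called. Of the single fold changes, Pecam1, Cdh5, Tie1, Lyve1 and Prox1 kept their sign in each. Scaling by library total alone moved the median log2 fold change of all genes from 0.03 to 0.19, and Kdr, Emcn and Esam then stood at 0.14, 0.037 and 0.093. limma-voom put Tek at -0.0085. Without Ptpro-KO replicate 1, Tek and Eng were at -0.28 and -0.082. Without Ptpro-KO replicate 2, Kdr and Esam were at 0.29 and 0.12. Without WT replicate 2, Tek was at -0.27. Without WT replicate 3, Kdr, Tek and Eng were at 0.04, -0.0017 and -0.03. Without both muscle-poor libraries, a setting chosen after seeing the data, Tek was at -0.27. With 1 library left out the log2 fold changes ran from -0.43 to 0.29 for Kdr, -0.28 to 0.37 for Tek, -0.22 to 0.12 for Esam and -0.08 to 0.28 for Eng.

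Over all genes edgeR called 320 higher and 405 lower, and 630 higher and 294 lower with library total scaling. In all, edgeR called 725, DESeq2 3152 and the fit with a replicate block 237. With 1 library left out edgeR called between 0 and 496 genes, the 0 coming without Ptpro-KO replicate 2, WT replicate 2 or WT replicate 3, where 4363, 3369 and 3078 genes had an unadjusted p under 0.05 and DESeq2 called 3172, 2247 and 2030. Without both muscle-poor libraries it called 0, with 3627 at an unadjusted p under 0.05. In the lists, 4 genes were called higher and 6 lower. Library total scaling gave 8 higher, and DESeq2 26 higher and 11 lower. The replicate block gave 3 lower. With 1 library left out there were 0 to 2 higher and 0 to 4 lower, and without both muscle-poor libraries 0 and 0. The fits with libraries left out rest on fewer libraries, and the cause of their counts was not tested. Same-numbered libraries did not pair consistently: their deviations correlated at 0.54, 0.08 and -0.24. Ptpro-KO replicates 1 and 2 correlated best with the WT library of their own number, and Ptpro-KO replicate 3 with WT replicate 2 (0.41). The main fit had no block, and the block served as an alternative only. Prox1 rests on 6 to 175 reads per library and Lyve1 on 68 to 2073.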
